A study of Homo sapiens with 24 samples.

Results

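The 24 h response of the lymphoma line U2932 to trabectedin was read from 6 of the 24 arrays of the series: 3 arrays labelled U2932.24h.ET, whose treatment label names trabectedin, were set against 3 labelled U2932.24h.DMSO. U2932 is an established line of diffuse large B cell lymphoma, of the activated B cell-like kind, and both groups are the same line cultured for 24 h, with the drug as single agent or with DMSO, the solvent. The other 18 arrays hold U2932 at 8 h and a second lymphoma line, OCI-Ly7, at 8 h and 24 h, and served here for the spread between replicates and for 2 comparisons at the end. Total RNA was amplified to biotinylated cRNA and hybridised to Illumina bead arrays of 47231 probes. The labels name no dose and do not say whether replicates came from separate cultures, so the p-values cover the spread between these arrays, which may be technical.

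Trabectedin is an alkaloid first isolated from a marine tunicate that sits in the minor groove of DNA and bonds to guanine. It is known to disturb transcription by RNA polymerase II, and its toxicity is known to depend on transcription-coupled nucleotide excision repair. Mature B cells live on signals from the B cell receptor, which pass from the kinases LYN and SYK to the lipase PLCG2 and the protease MALT1, while transcription factors such as SPIB, EBF1 and IKZF1 hold the B cell programme in place.

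The treated arrays were dimmer than the controls. Mean probe intensity was 340, 377 and 378 on the trabectedin arrays and 536, 535 and 556 on the DMSO arrays. The groups did not overlap (exact permutation test, two-sided p = 0.1, the smallest that 3 against 3 arrays allow). The number of probes above background was 12801, 11480 and 11269 after trabectedin and 14020, 14953 and 15424 in DMSO, again without overlap (exact p = 0.1), and the dimmest treated array detected the most probes of its group. A probe counted as above background at a detection p under 0.01. The p is the share of 656 probes for families that B cells leave silent, olfactory receptors among them, with an intensity as high or higher on that array. All 6 arrays lay on 1 chip, where the trabectedin arrays of both times held positions A to F and the DMSO arrays G to L, so that position and treatment cannot be told apart. Replicates correlated across tested genes at r between 0.991 and 0.998. In such bulk samples fewer cells of a type and less RNA per cell cannot be told apart either.

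**Figure D1:**
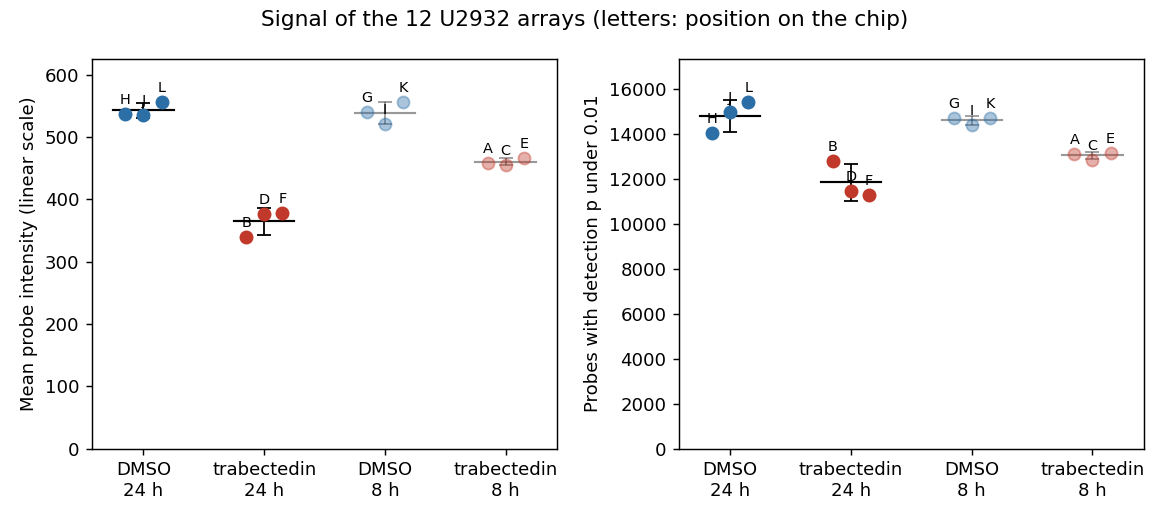
Mean probe intensity on a linear scale (left) and the number of probes with a detection p under 0.01 (right) for each of the 12 U2932 arrays, with the mean and SD of 3 arrays per group and the chip position of each array as a letter. The 3 trabectedin arrays of 24 h sit between 340 and 378 in mean intensity, below the DMSO arrays at 535 to 556.

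Because the treated arrays were dimmer, each change was computed under 4 scalings. Quantile normalisation of background-corrected values, which gives every array the same distribution, is the one whose values are printed unless another is named. The others were quantile normalisation without background correction, median scaling, and no scaling between arrays at all. Of 10198 genes tested, 3675 (36.0%) were higher and 4471 (43.8%) lower after trabectedin at an adjusted p under 0.05 in limma, and 1897 (18.6%) and 2895 (28.4%) also moved by at least 1 on the log2 scale. The median of all genes was -0.10 on the log2 scale under quantile normalisation, -0.06 without background correction, -0.94 under median scaling and -1.33 without scaling between arrays, so a rise or fall below is relative to those values. Under median scaling 1258 genes (12.3%) were higher and 6373 (62.5%) lower, and without scaling 566 (5.55%) and 7155 (70.2%). Changes of at least 1 covered 10.9% higher and 17.4% lower without background correction, 5.64% and 48.7% under median scaling, and 3.36% and 58.4% without scaling. The 3 arrays of one group lay wholly above those of the other in 38.9% of genes and wholly below in 46.7%. Called in the same direction under all 4 scalings were 566 genes (5.55%) that rose and 4372 (42.9%) that fell. The demand for all 4 thus removes most rises and few falls, and each share below is read against these backgrounds. A rise called under quantile normalisation alone is an increase in rank among the genes of an array, not in brightness.

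**Figure D2:**
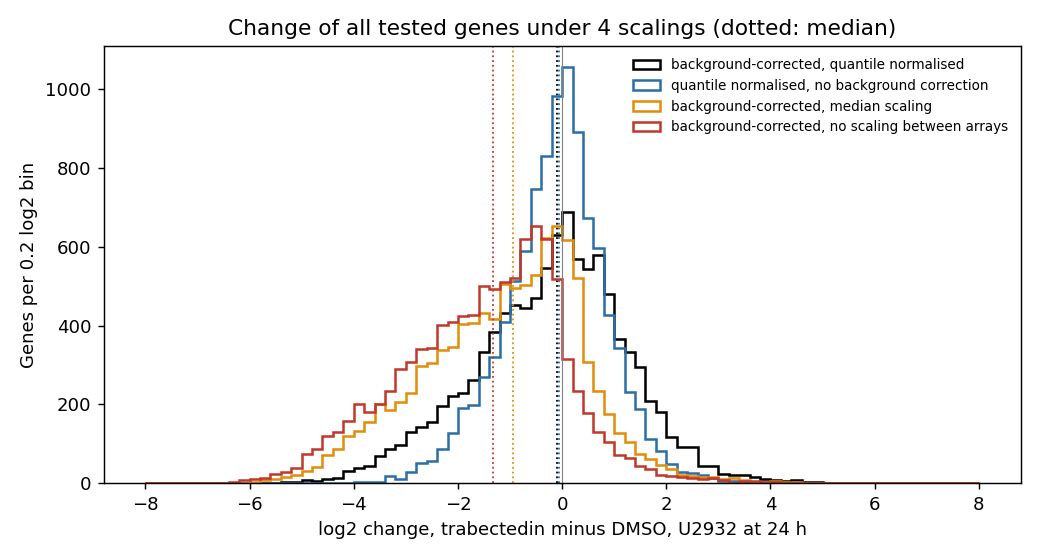
Number of genes (vertical axis, per bin of 0.2) by log2 change, trabectedin minus DMSO at 24 h in U2932, for the 10198 genes tested under each of the 4 scalings, with dotted lines at the medians. The medians lie at -0.10 and -0.06 under both quantile normalisations, at -0.94 under median scaling and at -1.33 without scaling.

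Among genes above background on all 6 arrays, called under all 4 scalings and without overlap between the groups, the 15 with the highest change held 10 small non-coding or ribosomal RNAs. ATF3, a stress-induced transcription factor, read 10.43, 10.45 and 10.47 on the trabectedin arrays and 5.90, 5.81 and 6.06 on the DMSO arrays (quantile-normalised log2 intensity), a rise of 4.53 ± 0.25 (log2 change ± SE, 3 arrays per group, adjusted p = 8.54e-14). TSC22D3, a glucocorticoid-induced regulator known as GILZ, read 10.14, 10.30 and 10.32 on the trabectedin arrays and 6.10, 5.83 and 5.98 on the DMSO arrays and rose by 4.28 ± 0.15. Every treated array of both genes lay far above every control array. CD14, the co-receptor for lipopolysaccharide on myeloid cells, read 10.63, 10.53 and 10.55 on the trabectedin arrays and 5.81, 5.76 and 5.71 on the DMSO arrays and rose by 4.81 ± 0.18. P2RY11, a nucleotide receptor, rose by 4.25 ± 0.25, and the long non-coding RNA LINC01089 by 4.27 ± 0.22. The probe for 18S ribosomal RNA, RNA18SN5, read 13.48, 13.60 and 13.62 on the trabectedin arrays and 6.29, 6.13 and 6.39 on the DMSO arrays, the highest change of these genes at 7.30 ± 0.55, and RNA5S9, a 5S ribosomal RNA, rose by 4.61 ± 0.25.

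The 15 lowest were protein-coding genes throughout. LYN, the kinase that starts B cell receptor signalling, read 6.35, 6.59 and 6.40 on the trabectedin arrays and 10.98, 11.02 and 10.96 on the DMSO arrays and fell by 4.54 ± 0.15 (adjusted p = 3.79e-17). SORL1, a sorting receptor, fell by 4.43 ± 0.20, and PTBP3, a splicing regulator, by 4.11 ± 0.19. CDH2, N-cadherin, was the brightest of these genes in DMSO and read 8.66, 8.72 and 8.70 on the trabectedin arrays and 12.78, 12.72 and 12.75 on the DMSO arrays. It stayed above background on every treated array and fell by 4.05 ± 0.08. STK24, a kinase, PIP4K2A, a lipid kinase, UBE2G1 and UBE2J1, conjugating enzymes of ubiquitin, and MBNL1, a splicing regulator, fell by 4.09 ± 0.16, 4.08 ± 0.19, 4.06 ± 0.13, 4.02 ± 0.17 and 3.89 ± 0.24. NLRP11, SEL1L3, APBB1IP, MELK, ARHGAP17 and CTPS2 made up the rest, with falls from 3.82 ± 0.12 (CTPS2, a CTP synthase) to 4.01 ± 0.18 (NLRP11).

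**Figure D3:**
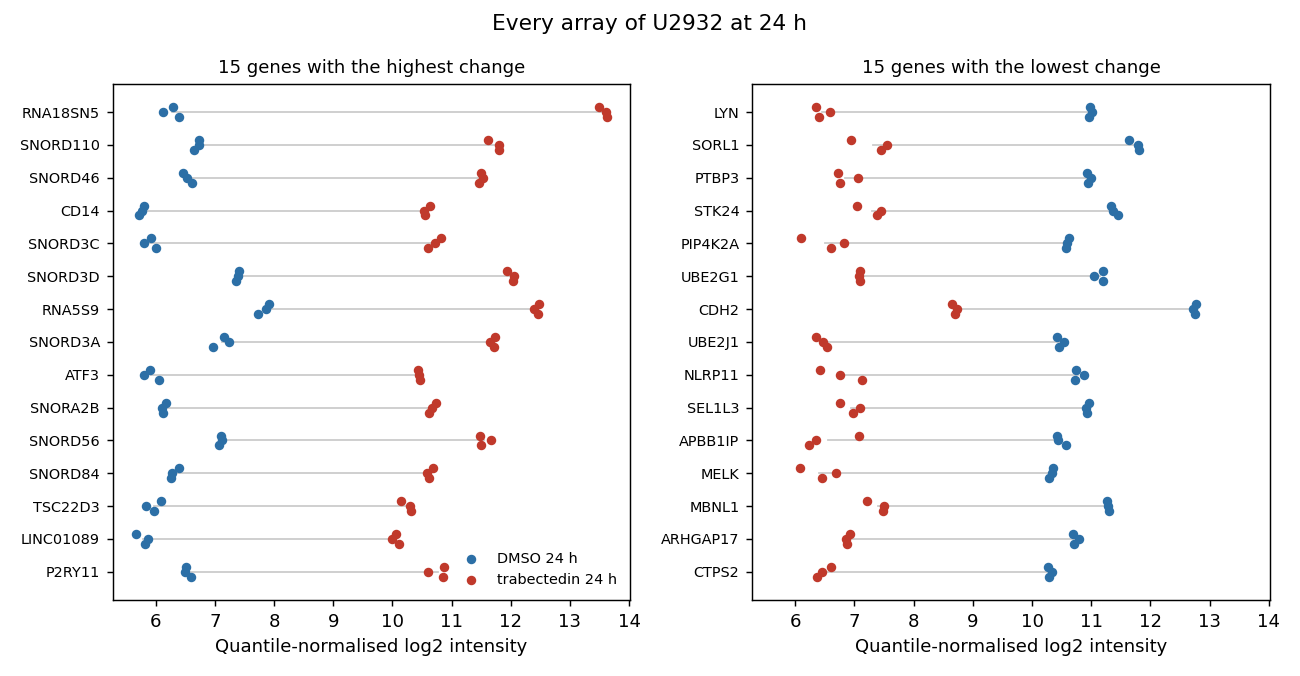
Quantile-normalised log2 intensity (horizontal axis) of the 15 top and 15 bottom genes by change, with each of the 3 DMSO arrays in blue and each of the 3 trabectedin arrays in red. The groups do not overlap for any gene, by the rule that chose them.

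Under quantile normalisation the small nuclear and nucleolar RNAs that passed the filter rose almost throughout. Spliceosomal small nuclear RNAs, the RNA cores of the machinery that removes introns, were higher in 12 of 13 tested members and lower in 0, with a median of 3.52, and 11 rose under all 4 scalings. The U1 variant RNVU1-7 read 10.07, 9.99 and 9.80 on the trabectedin arrays and 5.97, 5.78 and 5.76 on the DMSO arrays and rose by 4.12 ± 0.24. RNU1-3, a U1 RNA, rose by 4.08 ± 0.23, and RNVU1-18 by 3.83 ± 0.22. The exception, RNU105C, is a nucleolar RNA that its name placed in this list, at 0.06 ± 0.24. Near-identical copies of these genes may share a probe, so a value stands for a family rather than a locus.

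Box C/D small nucleolar RNAs, which guide methylation of ribosomal RNA, were higher in 88 of 92 tested members and lower in 1 (median 1.99). Under all 4 scalings 50 rose. SNORD110 read 11.62, 11.81 and 11.80 on the trabectedin arrays and 6.73, 6.73 and 6.65 on the DMSO arrays and rose by 5.04 ± 0.14. SNORD46 rose by 4.97 ± 0.21. The U3 genes SNORD3A, SNORD3C and SNORD3D, which take part in processing of the ribosomal precursor, rose by 4.58 ± 0.27, 4.80 ± 0.25 and 4.62 ± 0.26. The exception, SNORD14D, was in the background on all treated arrays. Box H/ACA and Cajal body RNAs, which guide pseudouridylation, were higher in 85 of 92 and lower in 4 (median 1.88), 43 of them higher under all 4 scalings. SNORA2B read 10.73, 10.66 and 10.61 on the trabectedin arrays and 6.18, 6.11 and 6.13 on the DMSO arrays, and SNORA28 rose by 3.75 ± 0.24. SNORA74A was in the background on all DMSO arrays and at least 7.81-fold higher. Of the box C/D members 23 and of the H/ACA members 28 were in the background on all DMSO arrays, and such a member was tested only because other arrays detected it, so these counts cover the members that passed and not all 176 and 125 on the array.

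Other RNAs made outside the messenger RNA pathway moved the same way. Ribosomal, 7S, RNase P and vault RNAs were higher in 14 of 15 and lower in 0 (median 1.94, 9 higher under all 4 scalings). RNY5, a Y RNA, rose by 3.26 ± 0.25. RN7SL1, the RNA of the signal recognition particle, did not pass, at 0.08 ± 0.10 (adjusted p = 0.473). Whether the probes of any of these genes read the mature RNA or a longer, polyadenylated form was not measured. Without scaling between arrays the medians of the 4 lists were 2.45, 0.63, 0.47 and 0.83, in the order given. All were above zero, while the median of all genes was -1.33. In that setting 50 of 92 box C/D members were higher and 10 lower. Of the H/ACA members 43 of 92 were higher and 17 lower.

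Replication-dependent histone genes, whose messages end in a stem-loop instead of a poly(A) tail, rose in 36 of 40 tested members and fell in 1 (median 1.63), and 16 rose under all 4 scalings. H2BC21, an H2B gene, read 9.19, 9.27 and 9.29 on the trabectedin arrays and 5.58, 5.45 and 5.52 on the DMSO arrays and rose by 3.74 ± 0.21. H2AC17 and H2AC19, H2A genes, rose by 3.57 ± 0.15 and 3.47 ± 0.26. All treated arrays of H2BC21 were high and all controls low. H4C3, an H4 gene, fell by 1.52 ± 0.12. Of the 66 members on the array 40 passed the filter, 14 of them in the background in DMSO. Replication-independent histone genes rose in 6 of 11 and fell in 3. H3-3B, which encodes the replacement histone H3.3, rose by 2.52 ± 0.12, while the centromeric histone CENPA fell by 1.18 ± 0.14, with another of its probes called the other way.

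The promoter of H2BC21 is shown for the octamer that H2B genes are known to carry. Beside it stands that of H2BC5, an H2B gene that rose by 3.30 ± 0.13 and has no exact match to the octamer in the same window. Sequences are the 250 bases before the start in RefSeq (GRCh38.p14), read on the gene's strand. Capitals mark ATTTGCAT (octamer) and CCAAT or their reverse complements.
H2BC21, chr1:149886683-149886932, minus strand: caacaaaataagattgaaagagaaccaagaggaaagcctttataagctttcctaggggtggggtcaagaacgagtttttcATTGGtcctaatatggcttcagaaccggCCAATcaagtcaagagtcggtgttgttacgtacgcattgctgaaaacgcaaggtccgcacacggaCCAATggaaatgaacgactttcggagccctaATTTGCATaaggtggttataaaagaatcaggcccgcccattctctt
H2BC5, chr6:26157871-26158120, plus strand: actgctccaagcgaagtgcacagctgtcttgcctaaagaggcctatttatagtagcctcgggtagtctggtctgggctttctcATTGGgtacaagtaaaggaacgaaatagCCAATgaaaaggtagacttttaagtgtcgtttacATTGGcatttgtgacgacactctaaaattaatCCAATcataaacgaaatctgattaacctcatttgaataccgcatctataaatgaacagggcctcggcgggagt
The octamer was found in 15 of 19 H2B promoters against 1.63% of all promoters in the table, and CCAAT in 19 of 19 against 32%. Over all replication-dependent histone promoters the octamer was in 27 of 65 and CCAAT in 57 of 65, so CCAAT is not particular to H2B. Both strands were searched, and the matches printed do not overlap. Only exact matches were counted, so a near variant such as atttgaat in the H2BC5 window was not. H2BC5 has another start in the table, with the same matches, and each start counts as a promoter. A match is a description of the letters and not of binding.

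AP-1 is a dimer of JUN and FOS family proteins that switches on genes after stress. Of 10 tested genes of AP-1 subunits, ATF3 and small MAF proteins, 7 rose and 2 fell (median 2.29), and 6 rose under all 4 scalings. JUN read 9.35, 9.28 and 9.26 on the trabectedin arrays and 4.88, 4.88 and 4.86 on the DMSO arrays, with all control arrays in the background, and was at least 14.6-fold higher. FOS was in the background in DMSO as well and at least 1.81-fold higher. JUNB rose by 3.03 ± 0.18, FOSB by 3.01 ± 0.22 and MAFG, a small MAF partner, by 3.21 ± 0.15. The subunits did not move together, since JUND fell by 0.30 ± 0.13 and BATF, a partner of JUN in lymphocytes, by 1.24 ± 0.18. FOSL2 rose by 0.92 ± 0.17 under quantile normalisation and not under all scalings. MAFF was at 0.29 ± 0.38 (adjusted p = 0.487), and BATF2, BATF3 and FOSL1 were detected on 0 of 6 arrays.

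The promoters of ATF3, JUN and FOSB are printed because the first pair hold a variant of the cyclic AMP response element, TGACATCA. FOSB, which rose as well, holds no exact match to it. Only exact matches were counted, so tgacgtaa in the FOSB window was not. Capitals mark TGACATCA and CCAAT or their reverse complements.
ATF3, chr1:212565157-212565406, plus strand: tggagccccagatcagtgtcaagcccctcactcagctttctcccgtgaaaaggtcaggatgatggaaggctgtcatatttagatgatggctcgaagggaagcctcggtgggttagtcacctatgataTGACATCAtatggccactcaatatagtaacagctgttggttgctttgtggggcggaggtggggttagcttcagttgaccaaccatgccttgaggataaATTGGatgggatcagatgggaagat
JUN, chr1:58784048-58784297, minus strand: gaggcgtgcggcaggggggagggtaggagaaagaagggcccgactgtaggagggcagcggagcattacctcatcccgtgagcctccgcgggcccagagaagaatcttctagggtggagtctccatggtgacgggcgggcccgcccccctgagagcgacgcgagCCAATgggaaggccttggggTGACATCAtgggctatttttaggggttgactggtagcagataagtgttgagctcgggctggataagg
FOSB, chr19:45467746-45467995, plus strand: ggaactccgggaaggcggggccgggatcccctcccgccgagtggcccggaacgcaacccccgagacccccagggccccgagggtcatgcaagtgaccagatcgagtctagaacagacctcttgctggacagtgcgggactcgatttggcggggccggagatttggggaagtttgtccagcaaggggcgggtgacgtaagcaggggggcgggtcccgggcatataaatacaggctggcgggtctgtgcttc
TGACATCA was found in 3 of 13 promoters of the list against 2.37% of all, and the full element TGACGTCA in 2 of 13 against 1.65%. In replication-dependent histone promoters TGACATCA was in 0 of 65 and TGACGTCA in 10 of 65, the latter at the same share of 15.4%. The AP-1 element TGACTCA was found in 0 of 13 against 4.2%, the octamer in 1 of 13 and CCAAT in 5 of 13. ATF3 has a second start in the table, counted as a promoter of its own, whose window holds none of the 5 motifs.

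Immediate early and feedback genes, which cells switch on within minutes of a signal, rose in 25 of 40 and fell in 7 (median 1.05). Under all 4 scalings 8 rose and 7 fell, and without scaling the median was -0.30. The kinase gene SGK1 read 8.93, 9.11 and 9.15 on the trabectedin arrays and 5.42, 5.30 and 5.21 on the DMSO arrays and was at least 12.4-fold higher, with all controls in the background. KLF6, a zinc finger transcription factor, rose by 3.28 ± 0.11, and DUSP1, a phosphatase that ends MAP kinase signals, by 2.67 ± 0.17. NFKBIE, an inhibitor of NF-kB, read 5.55, 5.95 and 5.71 on the trabectedin arrays and 8.88, 8.91 and 8.92 on the DMSO arrays, in the background after trabectedin. CD69, an activation marker of lymphocytes, and ID3, an inhibitor of E proteins, also fell.

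ATF4 and integrated stress response genes rose in 12 of 23 and fell in 6 (median 0.35). Under all 4 scalings 3 rose and 6 fell, and without scaling the median was -0.64, so its sign flips. The amino acid carriers SLC38A2 and SLC3A2 rose by 2.66 ± 0.12 and 2.42 ± 0.15, and PSPH, of serine synthesis, fell by 1.51 ± 0.14. Heat shock proteins fell in 19 of 33 and rose in 8. ER chaperones and unfolded protein response genes fell in 13 of 28 and rose in 8, and the share that fell, 46.4%, was near the 43.8% of all genes. FKBP5, a co-chaperone, fell by 1.53 ± 0.14, and ATF6, a sensor of the unfolded protein response, was at least 5.41-fold lower. NRF2 antioxidant genes were divided, with 7 higher and 9 lower of 19, near the background.

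B cell receptor proximal kinases and adaptors fell in 35 of 42 members and rose in 4 (median -1.43, and 34 fell under all 4 scalings). SYK, the kinase next to LYN, read 6.64, 6.62 and 6.79 on the trabectedin arrays and 10.32, 10.35 and 10.33 on the DMSO arrays and fell by 3.65 ± 0.12. CBL, a ubiquitin ligase that restrains the receptor, was in the background on all treated arrays and at least 7.01-fold lower. All treated arrays of LYN and SYK were low and all controls high. BCL10, which works with MALT1, ORAI1, a calcium channel, and NFATC1, a calcium-driven transcription factor, were called higher at 1.24 ± 0.16, 1.21 ± 0.17 and 0.58 ± 0.13 (with another NFATC1 probe called the other way), and none of them under all scalings. In 21 of the members all treated arrays were in the background, where only a bound on the fall exists.

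B cell identity transcription factors fell in 29 of 34 and rose in 3 (median -1.74, 28 lower under all 4 scalings). SPIB, an ETS factor of B cells, read 5.16, 6.07 and 4.84 on the trabectedin arrays and 9.59, 9.68 and 9.83 on the DMSO arrays and was at least 12.6-fold lower. EBF1, which commits cells to the B lineage, and LEF1, a partner of beta-catenin, were at least 6.47-fold and 17.3-fold lower. ZBTB7A, IKZF2 and IKZF5 were called higher, at 1.32 ± 0.20, 1.08 ± 0.15 and 0.82 ± 0.12, not under all scalings. IRF4, the factor that activated B cell-like lymphomas are known to need, was at 0.18 ± 0.11 (adjusted p = 0.119) and at -1.19 without scaling.

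Most markers of both lymphoma subtypes fell. Germinal centre B cell-like markers fell in 18 of 19 and rose in 1 (median -1.98). MME, a surface peptidase, was at least 3.93-fold lower. STAP1 and IRAG2 fell by 3.26 ± 0.25 and 3.08 ± 0.17, while MARCKSL1 was called higher at 1.16 ± 0.13, not under all scalings. Activated B cell-like markers fell in 15 of 22 and rose in 3 (median -1.25). TBL1XR1, a corepressor subunit, was at least 10.3-fold lower, and CCDC50 fell by 3.06 ± 0.15. The kinase gene PIM2, the cytokine gene IL10 and BCL2A1 were called higher at 0.66 ± 0.14, 0.41 ± 0.11 and 0.40 ± 0.15, none under all scalings. No test of a difference between the lists was run.

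Surface receptors and therapy targets fell in 23 of 41 and rose in 6 (median -0.64). CD44, a hyaluronan receptor, read 5.54, 6.21 and 5.88 on the trabectedin arrays and 9.80, 9.89 and 9.83 on the DMSO arrays and fell by 3.96 ± 0.11. IL4R, the interleukin 4 receptor chain, fell by 3.23 ± 0.18, and CD58, an adhesion ligand, was at least 4.05-fold lower. Of the receptor chains CD79B fell by 1.41 ± 0.14, under all 4 scalings. CD79A, its partner, was at 0.07 ± 0.14 (adjusted p = 0.643) and was called lower without scaling, at -0.62 (adjusted p = 0.0451), and the difference between the chains was not tested. MS4A1, which encodes CD20, was at -0.11 ± 0.14 (adjusted p = 0.485) and at -1.31 without scaling. Another of its probes was called higher, and the mean of its probes was at 0.995, so its direction depends on the probe. MHC class II and CIITA, with 7 higher and 6 lower of 17, and MHC class I and peptide loading, with 9 and 6 of 19, had no rise under all scalings. PSMB9, an immunoproteasome subunit, fell by 2.24 ± 0.12.

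Cytokines and chemokines rose in 13 of 23 and fell in 8, with a median of 0.39 that became -0.64 without scaling. CCL5, a chemokine for T cells, read 8.79, 8.61 and 8.87 on the trabectedin arrays and 6.22, 6.29 and 6.15 on the DMSO arrays and rose by 2.54 ± 0.13, the only one to rise under all 4 scalings, while the lymphotoxins LTB and LTA fell by 2.00 ± 0.16 and 1.60 ± 0.19. Interferon response genes were near the background, with 12 higher and 13 lower of 31. IFI27 was at least 6.37-fold higher, and the RNA-sensing kinase EIF2AK2 fell by 2.59 ± 0.19.

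Subunits of RNA polymerase II, the enzyme that makes messenger RNA, were all above background on all 6 arrays, and 9 of 16 rose and 3 fell. POLR2A, the largest subunit, read 12.63, 12.69 and 12.88 on the trabectedin arrays and 10.80, 10.93 and 10.61 on the DMSO arrays and rose by 1.95 ± 0.11, under all 4 scalings. POLR2B, the next largest, read 8.86, 9.19 and 9.27 on the trabectedin arrays and 9.80, 9.76 and 9.66 on the DMSO arrays and fell by 0.64 ± 0.13, and POLR2J and POLR2J3 fell by 0.47 ± 0.13 and 0.46 ± 0.15. The list's median was 0.79 under quantile normalisation and -0.35 without scaling, so its sign flips. RNA polymerase I and III subunits rose in 14 and fell in 12 of 28, or 50% and 42.9%, the falls near the share of all genes. POLR3B, the second subunit of RNA polymerase III, was at least 6.71-fold lower, and GTF3C4, of its initiation factor, rose by 2.29 ± 0.13.

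Elongation factors were higher in 19 and lower in 15 of 37, or 51.4% and 40.5% against 36.0% and 43.8% of all genes. Under all 4 scalings 3 rose and 15 fell. HEXIM1, which holds the elongation kinase P-TEFb inactive, was at least 3.33-fold higher, with the controls in the background, and EAF1, an ELL partner, rose by 2.25 ± 0.12. EAF2, another ELL partner, fell by 3.85 ± 0.25, AFF2, of the super elongation complex family, was at least 2.60-fold lower and CDK13, a kinase of the polymerase tail, at least 2.71-fold lower. Mediator subunits rose in 7 and fell in 12 of 28, or 25% and 42.9%, the falls near the 43.8% of all genes. Among those lower were the kinase module genes CDK19, at least 2.43-fold lower, and CCNC, which fell by 2.27 ± 0.14. SR proteins, hnRNPs and CLK kinases rose in 14 and fell in 21 of 41. DYRK1A, a kinase, was at least 6.61-fold lower. Zinc finger genes rose in 154 of 302 and fell in 74 (median 0.39). Under all 4 scalings, however, 27 rose and 72 fell, and without scaling the median was -0.74. ZNF211 read 10.12, 9.97 and 10.07 on the trabectedin arrays and 6.87, 6.86 and 6.89 on the DMSO arrays and rose by 3.18 ± 0.16.

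Long and fragile site genes, which take RNA polymerase II hours to cross, fell in 43 of 46 and rose in 2, and 43 fell under all 4 scalings. In 34 of them every treated array was in the background, so the median of -2.17 becomes -1.28 with such genes at their bound. TNS3, a focal adhesion protein, read 5.05, 4.65 and 4.65 on the trabectedin arrays and 10.32, 10.47 and 10.50 on the DMSO arrays and was at least 20.9-fold lower. CDK6, the G1 kinase, read 4.67, 4.65 and 4.63 on the trabectedin arrays and 9.79, 9.90 and 9.79 on the DMSO arrays and was at least 13.8-fold lower, and COP1, a ubiquitin ligase, at least 15.5-fold. VPS13B went the other way at 2.15 ± 0.17, not under all scalings, and ATXN1 was called higher at 0.44 ± 0.10 with another of its probes called the other way. The list was written with the same earlier results in view, so its direction is no independent evidence.

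Nucleotide excision repair genes, whose products cut out bulky adducts, fell in 21 of 32 and rose in 8 (median -0.56). MNAT1, of the CDK-activating kinase within TFIIH, read 4.51, 4.59 and 4.59 on the trabectedin arrays and 8.02, 7.95 and 8.05 on the DMSO arrays and was at least 3.89-fold lower. RAD23B, the partner of XPC, and TCEA1, which restarts stalled polymerase, fell by 2.73 ± 0.15 and 2.64 ± 0.11. ELOF1, an elongation factor of transcription-coupled repair, XAB2 and XPC were called higher at 1.94 ± 0.12, 1.65 ± 0.22 and 0.92 ± 0.11, none under all scalings. Homologous recombination and Fanconi anaemia genes fell in 19 of 33 and rose in 11. NBN, of the complex that senses double-strand breaks, the nuclease scaffold SLX4 and the helicase WRN were at least 10.1-fold, 3.60-fold and 4.24-fold lower.

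Damage checkpoint kinases and mediators fell in 18 of 29 and rose in 6. XRCC5, the Ku80 end-binding protein, read 7.07, 6.89 and 6.97 on the trabectedin arrays and 10.09, 10.07 and 10.05 on the DMSO arrays and fell by 3.09 ± 0.12. TP53BP1 fell by 3.01 ± 0.15, and the kinase CHEK2 was at least 4.46-fold lower. Targets of p53 rose in 14 of 23 and fell in 6 (median 0.46). Under all 4 scalings 3 rose and 6 fell. Without scaling 3 were higher and 13 lower, with a median of -0.78. The nuclease gene AEN read 11.47, 11.27 and 11.46 on the trabectedin arrays and 8.62, 8.97 and 8.95 on the DMSO arrays and rose by 2.55 ± 0.19, and TRIAP1 rose by 2.19 ± 0.13. SUSD6 was at least 3.51-fold lower.

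The BCL2 family, which decides whether mitochondria release cytochrome c, rose in 9 of 19 members and fell in 7. These shares were 47.4% and 36.8%, against 36.0% and 43.8% of all genes. PMAIP1, the killer protein NOXA, read 13.64, 13.55 and 13.61 on the trabectedin arrays and 12.34, 12.27 and 12.37 on the DMSO arrays and rose by 1.27 ± 0.12, the only member to rise under all 4 scalings. The BH3-only genes BMF and BBC3 were called higher at 2.03 ± 0.16 and 1.36 ± 0.18, with HRK between them, and the survival gene MCL1 at 0.96 ± 0.11, not under all scalings. The survival genes BCL2L1 and BCL2 fell by 2.25 ± 0.22 and 2.12 ± 0.10, with another BCL2 probe called the other way. BCL2L1 read 8.43, 8.60 and 8.52 on the trabectedin arrays and 10.83, 10.74 and 10.72 on the DMSO arrays, so its groups were far apart. BCL2L13, BIK, BNIP3, BNIP3L and BID fell too, by 0.61 ± 0.12 (BID) to 2.23 ± 0.15 (BCL2L13). BAX was at 0.07 ± 0.18 (adjusted p = 0.733) and at -1.54 without scaling.

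Caspases, IAP proteins and death receptors fell in 15 of 29 and rose in 7. CYCS, cytochrome c itself, read 10.56, 10.49 and 10.64 on the trabectedin arrays and 7.68, 7.59 and 7.51 on the DMSO arrays and rose by 2.97 ± 0.14. BIRC5, survivin, read 11.29, 11.29 and 11.32 on the trabectedin arrays and 9.24, 9.36 and 9.20 on the DMSO arrays and rose by 2.03 ± 0.12. Both rose under all 4 scalings. APAF1 and CASP9, which form the apoptosome with cytochrome c, were at least 2.35-fold and 1.90-fold lower, and CASP4 fell by 2.08 ± 0.11.

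**Figure D4:**
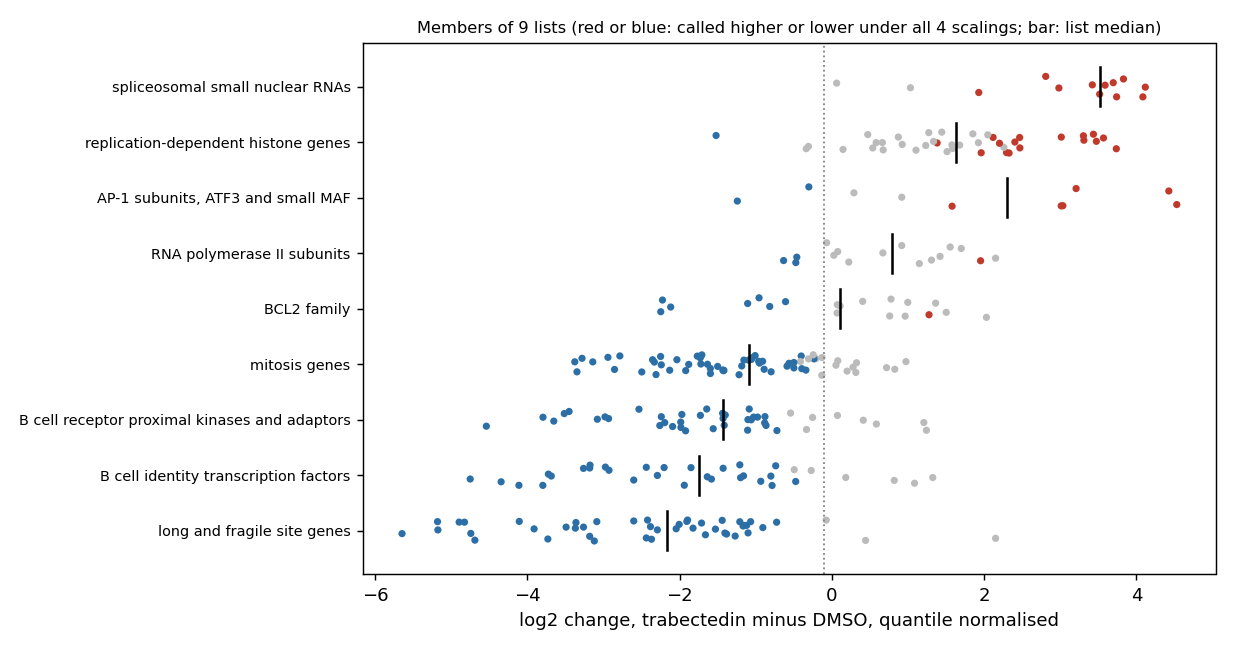
Log2 change, trabectedin minus DMSO (horizontal axis, quantile normalised), of each tested member of 9 lists, red or blue where the member was called higher or lower under all 4 scalings and grey otherwise, with a bar at each list's median and a dotted line at the median of all genes. Members of the BCL2 family and of RNA polymerase II lie on both sides, and long genes nearly all on the left.

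Mitosis genes fell in 48 of 63 and rose in 5 (median -1.09, 48 lower under all 4 scalings). CKAP5, a microtubule polymerase, read 7.62, 7.42 and 7.49 on the trabectedin arrays and 10.89, 10.92 and 10.85 on the DMSO arrays and fell by 3.38 ± 0.15. DLGAP5, a spindle assembly factor, fell by 3.35 ± 0.13, and ECT2, which directs cytokinesis, was at least 7.36-fold lower. CENPU and SKA3, of the kinetochore, were called higher at 0.97 ± 0.11 and 0.83 ± 0.11, not under all scalings. DNA replication genes fell in 30 of 60 and rose in 20, or 50% and 33.3% against 43.8% and 36.0% of all genes. ORC2 and ORC5, of the origin recognition complex, and PRIM1, of primase, fell by 4.12 ± 0.20, 3.20 ± 0.11 and 3.36 ± 0.15, while the replication licensing factor CDT1 was called higher at 1.58 ± 0.25. G1 cyclins, CDKs and inhibitors rose in 15 and fell in 14 of 31, or 48.4% and 45.2%, the falls near the share of all genes. E2F8, a repressor among E2F factors, read 8.32, 8.26 and 8.22 on the trabectedin arrays and 5.88, 5.90 and 5.90 on the DMSO arrays and rose by 2.37 ± 0.13 under all 4 scalings. FBXW7, a ubiquitin ligase for cyclin E, was at least 5.98-fold lower and CCNE1, cyclin E1, was called higher at 1.89 ± 0.12, not under all scalings.

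Chromatin regulators mutated in lymphoma fell in 25 of 30 and rose in 5 (median -1.36). ARID5B was at least 3.98-fold lower and SMARCA2, a remodelling ATPase, fell by 2.68 ± 0.14, while the remodeller CHD2 was called higher at 1.36 ± 0.14, not under all scalings. PI3K, AKT and mTOR regulators fell in 23 of 33 and rose in 5. The growth kinase MTOR, its inhibitor DEPTOR and the AKT phosphatase PHLPP1 were at least 6.53-fold, 6.19-fold and 6.67-fold lower. DDIT4, an inhibitor of mTOR signalling, RRAGC, a GTPase that brings mTOR to the lysosome, and AKT1S1, another inhibitor, were called higher at 1.68 ± 0.38, 1.68 ± 0.15 and 1.19 ± 0.12, none under all scalings. In the MYC, MAX and MXD network the repressors MXD4 and MXD1 rose by 2.40 ± 0.15 and 2.36 ± 0.14 under all 4 scalings, and the ubiquitin ligase MYCBP2 was at least 7.17-fold lower. MYC read 8.13, 8.16 and 8.11 on the trabectedin arrays and 7.78, 8.00 and 7.87 on the DMSO arrays and was called higher by 0.25 ± 0.11 under quantile normalisation, against -1.51 without scaling.

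**Figure D5:**
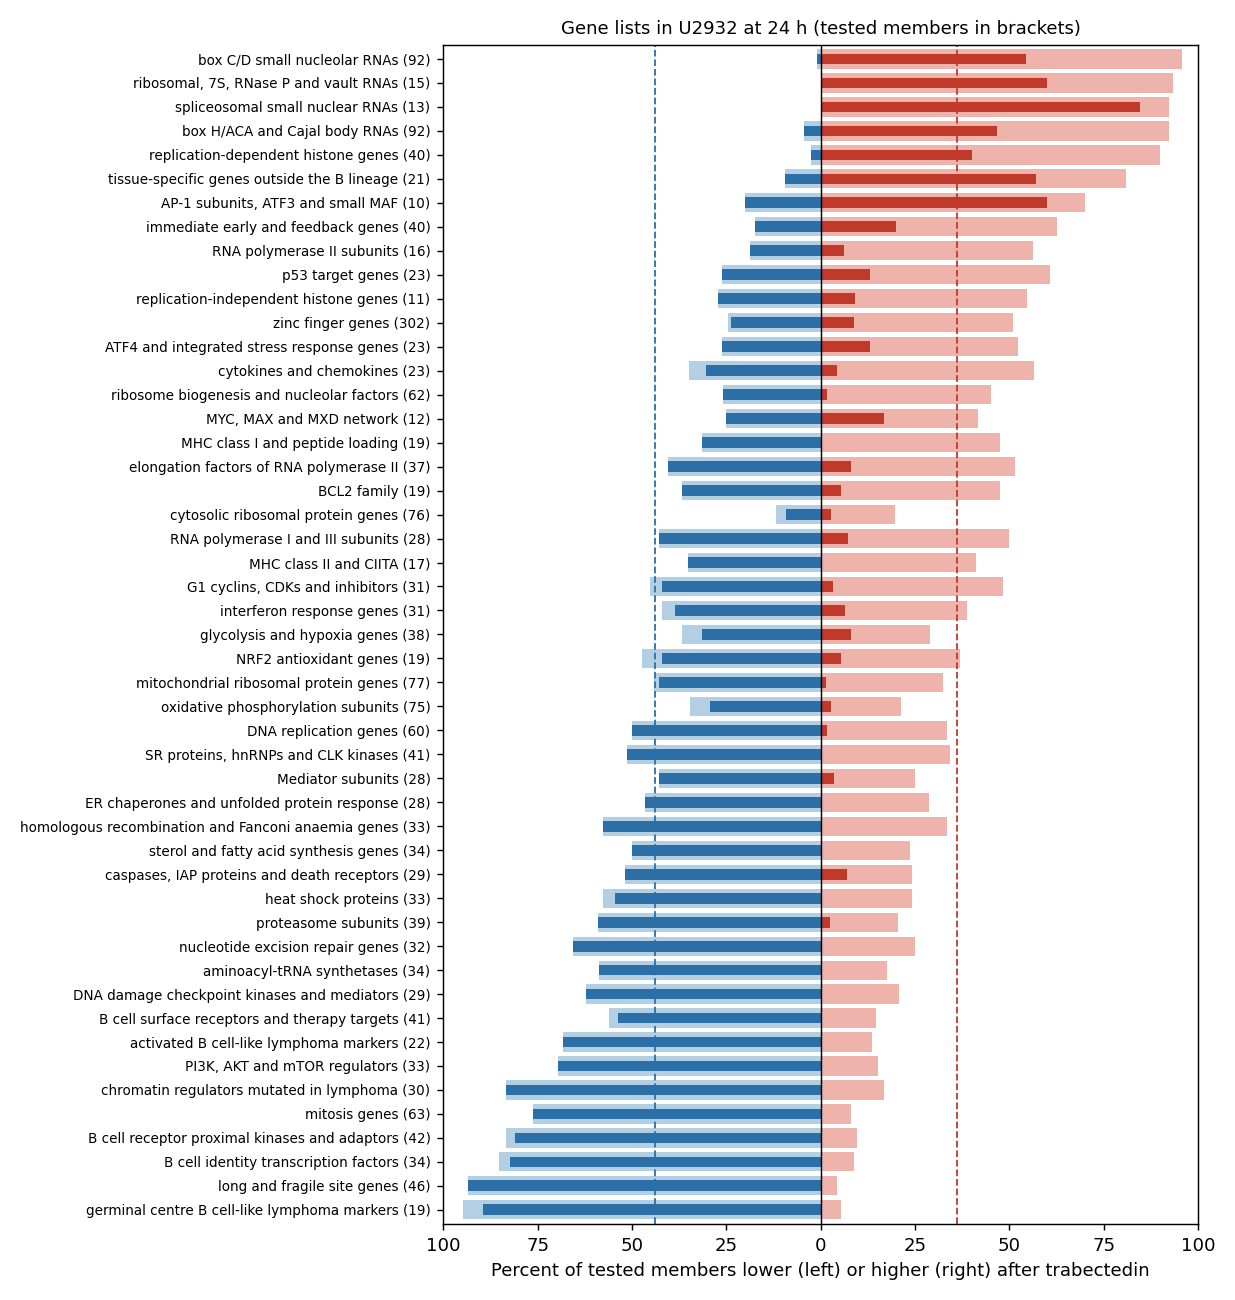
Percent of tested members (bracketed number) that were lower (left) or higher (right) after trabectedin in each of 49 gene lists, pale for quantile normalisation and dark for all 4 scalings, with dashed lines at the share over all genes, 43.8% lower and 36.0% higher. Small RNA and histone lists lie at the top and long genes and B cell lists at the bottom.

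Cytosolic ribosomal protein genes were higher in 15 and lower in 9 of 76, or 19.7% and 11.8% against 36.0% and 43.8% of all genes. Their median was 0.06, and -0.11 without scaling, where the median of all genes was -1.33. RPL37 read 9.83, 9.85 and 10.08 on the trabectedin arrays and 6.81, 6.33 and 6.29 on the DMSO arrays and rose by 3.45 ± 0.19, and a ribosomal protein probe may also read pseudogenes. Ribosome biogenesis and nucleolar factors rose in 28 and fell in 16 of 62, with PES1 at 2.26 ± 0.19 and DDX10 at least 16.7-fold lower. Under all 4 scalings 1 of these factors rose and 16 fell. Mitochondrial ribosomal protein genes rose in 25 and fell in 34 of 77, or 32.5% and 44.2%, near the shares of all genes. Oxidative phosphorylation subunits rose in 16 and fell in 26 of 75. Proteasome subunits fell in 23 of 39 and rose in 8, with PSME4 lower by 2.92 ± 0.14.

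Metabolic lists were mixed. Glycolysis and hypoxia genes rose in 11 and fell in 14 of 38, or 28.9% and 36.8%, both below the shares of all genes. ENO3, an enolase of muscle, read 9.84, 9.75 and 9.69 on the trabectedin arrays and 5.57, 5.51 and 5.50 on the DMSO arrays and rose by 4.23 ± 0.19, while PDK3 and HK1, hexokinase, fell by 2.90 ± 0.18 and 2.52 ± 0.15. Sterol and fatty acid synthesis genes fell in 17 of 34 and rose in 8, or 50% and 23.5% against 43.8% and 36.0% of all genes. ACACA, acetyl-CoA carboxylase, was at least 5.17-fold lower, and DHCR7, of cholesterol synthesis, was called higher at 1.75 ± 0.14, not under all scalings. Aminoacyl-tRNA synthetases fell in 20 of 34 and rose in 6, and FARS2, of mitochondria, was at least 7.41-fold lower.

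Some genes of other tissues appeared. Of 71 listed tissue-specific genes outside the B lineage 21 passed the filter, 17 of them higher, and since 10 were in the background in DMSO the filter favours rises. GH1, growth hormone, read 9.46, 9.49 and 9.35 on the trabectedin arrays and 4.69, 4.70 and 4.63 on the DMSO arrays and was at least 16.1-fold higher, and AMH and APOE at least 13.5-fold and 11.8-fold.

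Markers of cell types were read as whole lists. Of the B cell markers 8 were tested, of which 4 fell and 0 rose. The share that fell, 50%, was near the 43.8% of all genes. PAX5 was detected on 0 of 6 arrays. VPREB3, a protein of the pre-B cell receptor family, and CD79B fell by 2.11 ± 0.10 and 1.41 ± 0.14 under all 4 scalings, and BLNK, an adaptor, was called lower and above background on 1 of 6 arrays. CD22 fell by 0.54 ± 0.24, not under all scalings. CD74, CD79A, MS4A1 and FCRLA did not pass, at 0.01 ± 0.16, 0.07 ± 0.14, -0.11 ± 0.14 and -0.20 ± 0.13, though another MS4A1 probe was called higher. Sums of markers were taken over quantile-normalised intensities brought back from the log2 scale. For the B cell markers the sum ran from 18097 to 19496 after trabectedin and from 24391 to 25353 in DMSO. CD79B, at a mean log2 intensity of 12.73 in DMSO and 11.31 after trabectedin, weighs heavily in it. All 10 plasma cell markers were tested, and 6 fell and 2 rose. TNFRSF17, the receptor BCMA, XBP1, a transcription factor of secretory cells, MZB1, JCHAIN and FKBP11 fell by 2.15 ± 0.16, 1.19 ± 0.14, 1.12 ± 0.10, 0.74 ± 0.12 and 0.72 ± 0.12 under all 4 scalings, and PRDM1 was at least 1.10-fold lower. DERL3 and SLAMF7 were called higher at 1.93 ± 0.11 and 1.91 ± 0.16, not under all scalings, and SDC1 was at 0.29 ± 0.17 (adjusted p = 0.119). Their sum ran from 7227 to 7370 after trabectedin and from 14973 to 15548 in DMSO.

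Of the NK cell markers 0 were tested. Of the T cell markers LCK and CD28 were, both in the background on all treated arrays, with a sum of 57.7 to 81.4 after trabectedin and 77.3 to 81.0 in DMSO. Of the 13 myeloid markers on the array CD14, CD68 and FCER1G were tested. CD68 was called higher at 1.25 ± 0.13, not under all scalings, and FCER1G was at least 1.70-fold higher, and LYZ was detected on 1 of 6 arrays and S100A8, S100A9, CSF1R and ITGAM on 0. The sum of the 3 tested myeloid markers ran from 2410 to 2578 after trabectedin and from 433 to 459 in DMSO. The erythroid markers HBA2 and AHSP were at least 1.85-fold and 1.28-fold higher, neither under all scalings (0.20 and 0.08 without scaling). Their sum was 109 to 163 after trabectedin and 59.1 to 67.9 in DMSO. Of the epithelial markers EPCAM fell by 0.67 ± 0.12, with another of its probes called the other way. MUC1 was at least 1.35-fold higher, not under all scalings (0.12 without scaling). The sum of EPCAM and MUC1 was 970 to 1105 after trabectedin and 1432 to 1727 in DMSO. The fibroblast marker DCN was in the background on all treated arrays, at 36.4 to 51.4 against 54.1 to 56.9 in DMSO. The part of these markers in the other results was not tested.

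The effect at 24 h was compared with that at 8 h in the same line, which shares no array with it. The effect differed in 4201 genes at an adjusted p under 0.05 (interaction in limma), with 1666 (16.3%) higher and 2535 (24.9%) lower at 24 h. ATF3 had risen by 2.08 ± 0.25 at 8 h, so its effect at 24 h was higher by 2.45 ± 0.35 (adjusted p = 8.12e-06). UPP1, uridine phosphorylase, rose by 1.55 ± 0.13 at 8 h and 4.11 ± 0.13 at 24 h, and MEX3B, an RNA-binding protein, by 1.99 ± 0.12 at 8 h, while at 24 h it was at least 20.7-fold higher. IKZF3, Aiolos, a B cell transcription factor, turned around: it was higher by 2.08 ± 0.15 at 8 h and lower by 1.16 ± 0.15 at 24 h, a difference of -3.24 ± 0.21. MGST2, NAPSA and MIR3142HG were at -0.22 ± 0.22, 0.21 ± 0.21 and -0.52 ± 0.12 at 8 h, and at 24 h MGST2 was at least 8.54-fold lower, NAPSA fell by 2.86 ± 0.21 and MIR3142HG was at least 4.44-fold lower. Between the times the effect was higher at 24 h in 5 of 10 AP-1 genes and 67 of 92 box C/D RNAs. It was lower at 24 h in 18 of 42 B cell receptor genes.

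The same contrast in OCI-Ly7, a lymphoma line of the germinal centre B cell-like kind, differed in 6516 genes, with 2600 (25.5%) higher and 3916 (38.4%) lower in U2932. In OCI-Ly7 the treated and control arrays of 24 h lay on different chips, where chip and treatment cannot be told apart. ATF3 was at 0.94 ± 0.25 there, detected on 2 of 6 arrays, and TSC22D3 at 0.70 ± 0.15, against rises of 4.53 ± 0.25 and 4.28 ± 0.15 in U2932. UPP1 was detected on 0 of the 6 arrays in OCI-Ly7. RNA18SN5 was at 0.59 ± 0.55 and SNORD46 at 1.27 ± 0.21. CDH2 was detected on 0 of 6 arrays in OCI-Ly7, so a fall could not have been seen. ZNF215, HPCAL1 and SCAMP1 were at -0.07 ± 0.14, 0.22 ± 0.22 and -0.92 ± 0.14 there and at least 11.1-fold, 9.32-fold and 13.1-fold lower in U2932. The effect on mitosis genes was lower in U2932 than in OCI-Ly7 by this test in 52 of 63 members. Their median effect was -1.09 in U2932 and 0.00 in OCI-Ly7.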

How the data were processed

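Total RNA of 24 arrays in 8 groups of 3 was profiled, and samples were grouped from the labels. Linear probe intensity and log2 values were deposited by the authors in separate tables, and the log2 values lay within 4.99e-09 of quantile-normalised log2 intensities. Work began from the intensities. Of 47231 probes 30113 had 1 gene symbol in the platform annotation, 8 several and 17110 none, and 30074 were matched to RefSeq by gene ID. Detection p-values were rebuilt from 656 probes of 6 gene families silent in B cells. Background was corrected with the nec function of limma 3.58.1 (R 4.3.3) with an offset of 16. A probe was kept if its detection p was under 0.01 on 3 or more arrays, leaving 13530 probes of 10198 genes, and the brightest probe stood for each of the 2649 genes with several. One limma model with a mean per group was fitted over 24 arrays, with two-sided p-values adjusted over all genes by the Benjamini-Hochberg method. For a gene in the background on all 3 arrays of a group, a fold is a lower bound against each array's dimmest detected probe, or against the gene's own probe if that was brighter. Depth here is signal over background, and the number of arrays limits precision.

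The members, the 49 gene lists, the 8 marker lists and the named genes were chosen with earlier results of these data known. Genes that could be named are the 15 highest and 15 lowest that were detected on all 6 arrays and called under all 4 scalings, up to 3 called members at each end of a list, all AP-1, RNA polymerase II, BCL2 family and marker genes, and 6 at each end of each difference of effects. Not all of these are named: 12 RNA polymerase II subunits and 5 genes of the differences of effects are left out, and lists give fewer than the rule allows. MYC, RN7SL1 and RNU105C were named after their values were seen. After values were seen, detection was also changed to be judged on the probe that stands for a gene rather than on any of its probes, and the promoters and the 5 motifs were chosen.

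The model was tested on simulated data under 2 noise models, the second added after the result of the first. Large changes were recovered under both. Under both, genes left unchanged made up more of the calls than the nominal rate, most of all under the first, so counts of calls may be too high. By how much cannot be read from the simulation, since it changed few genes where most were called in the data. Replicate numbers were checked for pairing: same-numbered arrays deviated together at r of -0.02, -0.01 and 0.00, so no block was used. Plots used Python 3.11.15 and matplotlib 3.10.9. No genome was used, and promoters came from RefSeq (GRCh38.p14). Background correction, scaling, offset, filter, probe choice, arrays in the fit, replicate block, deposited values and leaving out each replicate were the alternatives tried.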

Additional observations from a re-analysis of the deposited data

Results flagged for a closer look

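The effect of trabectedin in U2932 differed between 24 h and 8 h in 4201 genes and between U2932 and OCI-Ly7 at 24 h in 6516 genes by the interaction test. Under quantile normalisation some named genes were called in opposite directions. Between 24 h and 8 h in U2932 the difference of effects, on the log2 scale, was 1.23 for ATXN1, -0.90 for BID, -1.20 for CD22, -2.33 for CD69, -1.22 for DCN, -3.24 for IKZF3 and -1.64 for MZB1. Between U2932 and OCI-Ly7 at 24 h it was 1.03 for ATF4, 2.20 for BCL10, 0.96 for BCL2A1, -1.44 for BNIP3, -1.76 for CD69, -3.83 for ECT2, -0.67 for JUND, -2.40 for LTA, 1.02 for MYC, 1.82 for ORAI1, -2.42 for PRDM1 and -3.74 for SLX4, where chip and treatment cannot be told apart in OCI-Ly7. Each of these differences passed the adjusted p of the interaction test under quantile normalisation. Opposite directions with both effects and their difference called held under all 4 scalings for 1 gene between the times, IKZF3, and for 0 between the lines. Without scaling between arrays the difference was 0.40 for ATXN1, -0.51 for BCL2A1, -0.45 for JUND and 0.31 for MYC, and none of these passed. Outside the genes tested, 172 probes without a gene symbol were above background on all 3 trabectedin arrays and on no DMSO array, and 463 the other way round. Among probes with 1 gene symbol the numbers were 353 and 2648.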

How the results depend on the processing

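With each replicate left out, counts stayed within 1.5 times: 3524 to 3578 higher and 4345 to 4401 lower genes, 1900 to 1944 higher and 2866 to 2920 lower by at least 1, 3723 to 3928 with an effect differing from 8 h and 6200 to 6360 from OCI-Ly7. Mean probe intensity then differed by -184 to -166 and detected probes by -3424.5 to -2636.5. Scaling moved the counts: 1258 genes were higher under median scaling, and 566 higher and 7155 lower without scaling. Changes of at least 1 numbered 1116 higher and 1777 lower both without background correction and in the authors' deposited log2 values, 575 and 4966 under median scaling, and 343 and 5960 without scaling. Among probes detected on all 6 arrays, where fewer genes were tested, 2109 were lower, 1160 of them by at least 1. The effect differed between U2932 and OCI-Ly7 in 4125 genes without scaling and in 3853 among probes detected on all 6 arrays, and fits on the U2932 arrays alone cannot give this comparison. With a replicate block 3685 genes were higher and 4487 lower, and the effect differed from 8 h in 4085 genes and from OCI-Ly7 in 6473, so the block moved no count by 1.5 times. Same-numbered arrays did not deviate together, and the labels do not say what the replicate numbers stand for. For the 227 tested genes named in the text, 3861 of 4001 values under the alternatives kept direction and side of the threshold, 66 lost their call and 11 gained one and 63 changed sign. A gene near background has only a bound.

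These named genes changed sign, with the log2 change in brackets. Under median scaling they were ATXN1 (-1.01), BAX (-1.15), BCL10 (-0.0754), BCL2A1 (-1.05), CD28 (0.14), CD79A (-0.22), CENPU (-0.0313), FOSL2 (-0.051), IKZF2 (-0.18), IKZF5 (-0.61), IRF4 (-0.80), MAFF (-0.46), MAX (-1.22), MYC (-1.12), NFATC1 (-0.71), PIM2 (-0.0913), RNU105C (-0.74), SDC1 (-0.76), SKA3 (-0.38) and ZBTB7A (-0.0451). Without scaling between arrays they were AKT1S1 (-0.33), ATXN1 (-1.41), BAX (-1.54), BBC3 (-0.38), BCL10 (-0.47), BCL2A1 (-1.44), CD68 (-0.0923), CD74 (-0.34), CD79A (-0.62), CENPU (-0.43), CHD2 (-0.38), FOSL2 (-0.45), HRK (-0.22), IKZF2 (-0.57), IKZF5 (-1.004), IL10 (-0.27), IRF4 (-1.19), MAFF (-0.86), MAX (-1.62), MYC (-1.51), NFATC1 (-1.11), ORAI1 (-0.30), PIM2 (-0.49), RN7SL1 (-0.00918), RNU105C (-1.14), SDC1 (-1.16), SKA3 (-0.78), XPC (-0.35) and ZBTB7A (-0.44). Under cyclic loess they were BCL2A1 (-0.000999), CD28 (0.57), MAX (-6.44e-05), MYC (-0.13) and RNU105C (-0.15). With the mean of a gene's probes they were ATXN1 (-0.48), CD28 (0.31), MS4A1 (0.995) and NFATC1 (-0.50). With each replicate left out, CD28 ran from -0.0804 to 0.0173 (all arrays -0.0389), CD74 ran from -0.0209 to 0.0471 (all arrays 0.00594) and RNU105C ran from -0.0734 to 0.25 (all arrays 0.0614). The cause of these changes was not tested.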
